A study of Homo sapiens with 2 samples.

Results

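The HOX cluster genes are the protein-coding genes named HOXA, HOXB, HOXC or HOXD plus a number, 39 of the 20037 protein-coding genes of the RefSeq table on GRCh38.p14. They were taken by symbol alone, so the read-through gene HOXA10-HOXA9 is not among them. The assay was CUT&Tag for lysine lactylation, in which an antibody against lactylated lysine on any protein brings a transposase to chromatin and the DNA next to it is tagged and sequenced. The cells were CAL27, a human line established from a squamous cell carcinoma of the tongue. There was 1 library of CAL27 cells given 10 mM lactate for 24 hours, with 15120031 tags, and 1 library of CAL27 cells with no treatment, with 15696147 tags. Each group had 1 library, so there was no replicate to check a difference against and no test was run, and the 95% intervals cover counting error only. The names of all peaks in each deposited list, and the input file in its header, carry the other sample's name, so the groups are called the library labelled lactate and the library labelled untreated, and all directions given here would be the opposite if the lists had been swapped.

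HOX genes encode homeodomain transcription factors that give cells of the embryo their position along the head-to-tail axis and, in limbs, along the limb. They lie in 4 clusters, in which all genes are read in the same direction and the order along the chromosome follows the order of their domains along the body, with low paralogue numbers in front. Polycomb complexes keep unused stretches of a cluster silent and trithorax complexes keep used ones active. In mouse and chick embryos the neural crest cells of the mandibular arch, which forms much of the mouth, do not express Hox genes, while several HOX genes are known to be expressed in squamous carcinomas.

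Few HOX genes carried a lactylation region. A region is an interval of the authors' peak list, and a gene was counted when a region overlapped it or the 1 kb to either side. In the library labelled lactate 12 of 39 HOX genes had a region (30.8%, exact Clopper-Pearson interval 17 to 47.6%), beside 67.5% of all protein-coding genes. In the library labelled untreated 11 of 39 had one (28.2%, interval 15 to 44.9%), beside 62.9% of all. In both libraries 10 HOX genes had one (25.6%), beside 58.6% of all protein-coding genes, and 26 had none in either (66.7%), beside 28.2%. The intervals treat the members as independent, which neighbours that share a region are not.

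Genes with a region in both libraries included HOXA3, HOXA13, HOXB3, HOXC4, HOXC5, HOXC6, HOXC10, HOXC13 and HOXD11. HOXB1 and HOXB6 had one in the library labelled lactate alone, and HOXA10 in the library labelled untreated alone. HOXA10 had 2 regions in the library labelled untreated, 1 of them inside the gene and 1974 bp from any region of the library labelled lactate. The nearest region of the library labelled lactate lay 1191 bp from the gene, outside the 1 kb, and 154 bp from the other region of the library labelled untreated. Members in the library labelled lactate alone were 2 of 39 (5.13%), beside 8.93% of all protein-coding genes, and in the library labelled untreated alone 1 of 39 (2.56%), beside 4.28%.

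HOX genes are short, with a median length of 3785 bp against 24115 bp for all protein-coding genes, so the share was also set beside genes of like length. Of the 25 HOX genes of up to 5 kb, 2 had a region in the library labelled lactate (8.0%), against 1 in that labelled untreated (4.00%), beside 34.9% and 29.7% of all 3197 coding genes of that length. Of the 10 HOX genes of 5 to 20 kb, 7 had one in each library (70.0%), beside 58.5% in the library labelled lactate, against 52.9% in that labelled untreated. Of the 4 of 20 to 50 kb, HOXA3, HOXB3, HOXC4 and HOXD3, all but HOXD3 had one in each library, beside 76.1% and 70.6%. The members below their background were the compact genes, and the longer members stood near it by count. HOXC5 and HOXC6 of 5 to 20 kb and HOXC4 of 20 to 50 kb share regions, so the longer members are few and not independent.

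**Figure D1:**
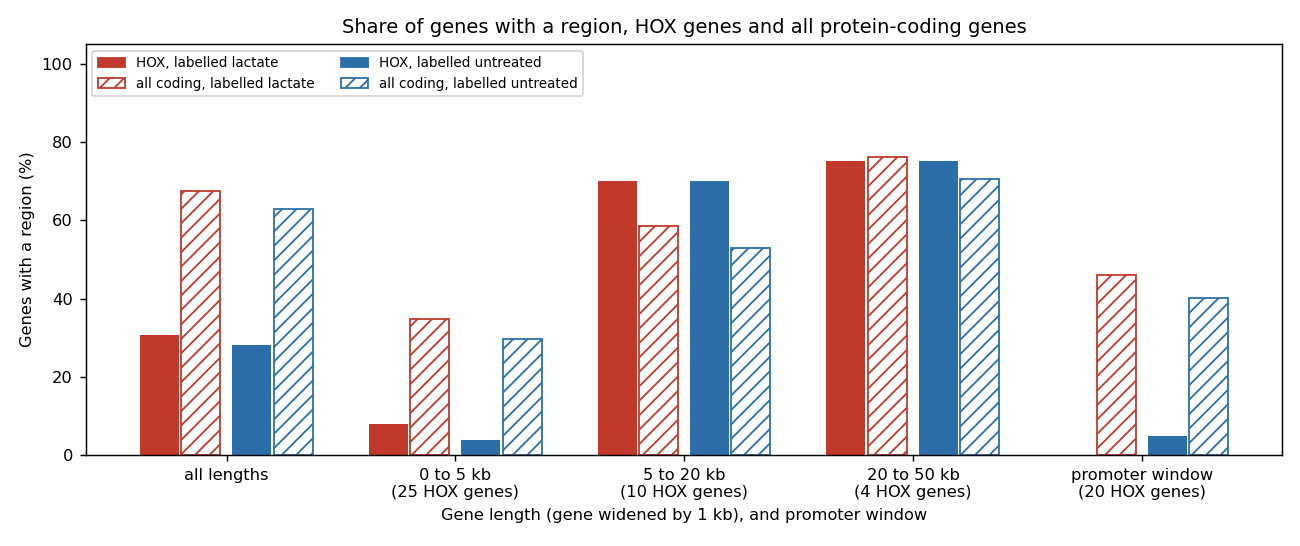
Share of genes with a region (y axis, percent) for HOX genes (filled bars) and all protein-coding genes (hatched bars) in the library labelled lactate (red) and the library labelled untreated (blue), by gene length and for the RefSeq promoter window. HOX genes of up to 5 kb reach 8.0% in the library labelled lactate, against 4.00% in that labelled untreated, beside 34.9% and 29.7% of all coding genes of that length. HOX promoter windows reach 0 and 5.00%.

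By paralogue position, the numbers 3, 4, 5, 6, 10, 11 and 13 held at least 1 gene with a region in each library. The numbers 2, 7, 8, 9 and 12 held none in either. Positions 4 and 5 in each library, and 6 in the library labelled untreated, rest on HOXC4, HOXC5 and HOXC6 alone. These overlap and share regions, so they are not separate positions. Position 9 was empty, with 4 members, HOXA9, HOXB9, HOXC9 and HOXD9. All members at the empty positions but HOXB9, of 5203 bp, are genes of up to 5 kb. Of all coding genes of that length 34.9% had a region in the library labelled lactate, against 29.7% in that labelled untreated. Whether position matters apart from gene length was not tested. At position 3, whose genes pattern the pharyngeal region, HOXA3 and HOXB3 had regions in both libraries and HOXD3 in neither. At position 13, whose genes pattern the ends of limbs and trunk, HOXA13 and HOXC13 had regions in both libraries, and HOXB13 and HOXD13 in neither.

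Genes with a region were found among low, middle and high paralogue numbers. The counts below stand beside 67.5% of all protein-coding genes in the library labelled lactate, against 62.9% in that labelled untreated. They are not matched for gene length, and the first group holds the long genes HOXA3 and HOXB3. Among the 8 members numbered 1 to 3, 4 had a region in the library labelled lactate, against 3 in that labelled untreated. Among the 15 numbered 4 to 8 these were 4 and 3, with HOXC4, HOXC5 and HOXC6, which share regions, in each count. Among the 16 numbered 9 to 13 they were 4 and 5. The members with no region in either library were HOXA2, HOXA4, HOXA5, HOXA6, HOXA7, HOXA9 and HOXA11 of HOXA, HOXB2, HOXB4, HOXB5, HOXB7, HOXB8, HOXB9 and HOXB13 of HOXB, HOXC8, HOXC9, HOXC11 and HOXC12 of HOXC, and HOXD1, HOXD3, HOXD4, HOXD8, HOXD9, HOXD10, HOXD12 and HOXD13 of HOXD.

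**Figure D2:**
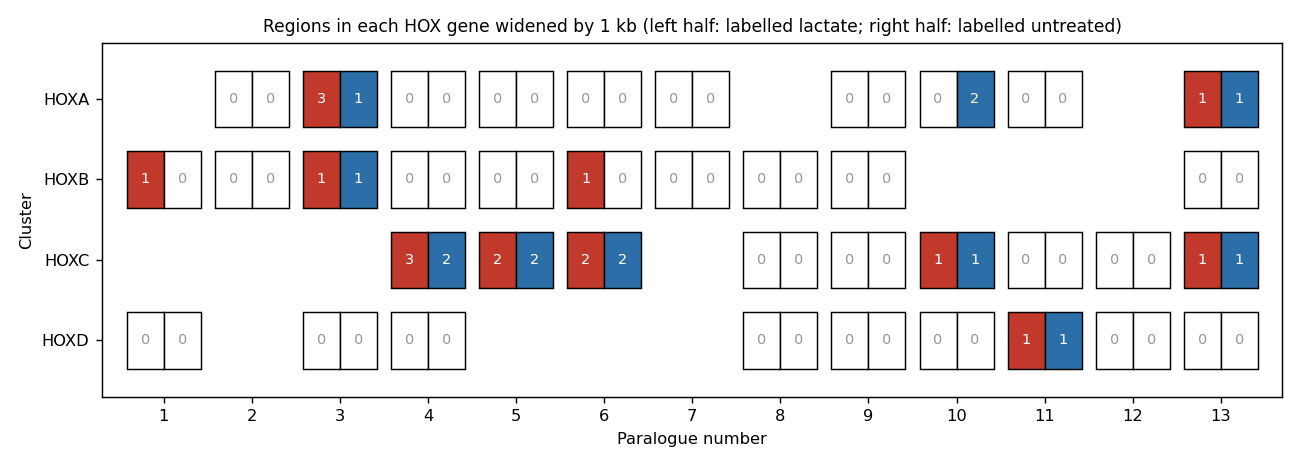
Number of regions in each HOX gene widened by 1 kb, by cluster (rows) and paralogue number (x axis), with the library labelled lactate in the left part of each cell (red where above 0) and the library labelled untreated in the right part (blue where above 0). Blank places have no gene or are not reported. HOXC4 to HOXC6 are filled together, and HOXD has 1 filled gene, HOXD11.

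Each cluster was then widened by 50 kb to both sides and all regions in it were listed. These windows, 927.9 kb in all, held 28 regions in the library labelled lactate (exact Poisson interval 18.6 to 40.5), against 17 in that labelled untreated (9.90 to 27.2). That is 30.2 and 18.3 regions per Mb, beside 16.2 and 14.1 per Mb over the genome size in the file headers. Regions covered 0.977% and 0.675% of the windows, beside 0.626% and 0.514% of the genome. Of the 28 regions 14 lay over 1 kb from every HOX gene, and of the 17 regions 6 did.

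In the HOXA cluster on chromosome 7, 3 of 11 genes had a region in the library labelled lactate, against 4 in that labelled untreated, and the widened window held 8 regions in each. Pileups are counts of tags at the summit, not scaled for depth, folds are enrichments over the local background, and both are the authors' values.

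HOXA3, needed in the mouse for the thymus and parathyroid, spans 45574 bp and encloses several other HOXA genes. At chr7:27150409-27150840 the library labelled lactate had a pileup of 13 tags and a fold of 2.64, and at chr7:27150398-27150667 the library labelled untreated had 15 tags and a fold of 3.03, with summits 2 bp apart. The library labelled lactate alone had 2 more, at chr7:27135908-27136218 and chr7:27136462-27136696, with pileups of 22 and 24 tags and folds of 5.78 and 6.58. These lie between HOXA4 and HOXA5, with start sites of HOXA3 on both sides, and the fold of 6.58 was the highest of any region in the 4 windows. The nearest region of the library labelled untreated lay 14180 and 13702 bp away, and that library's list held regions with pileups down to 10 tags at a local background within 10% of theirs after scaling for depth. That lowest pileup is the minimum of a large set of called regions, so it does not tell what signal that library had here.

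Between HOXA9 and HOXA10 the regions of the libraries lay side by side. The library labelled lactate had one at chr7:27169215-27169414 with a pileup of 24 tags and a fold of 4.34. The library labelled untreated had one at chr7:27169568-27169946 with 26 tags and a fold of 4.44, and another at chr7:27171388-27171846 with 21 tags and a fold of 3.41, inside HOXA10, a gene of the uterus and limb. All 3 lie in HOXA10-AS, a lncRNA read from the other strand. At the outer end, near HOXA13, a gene of digits and the urogenital tract, both libraries had a region at the same place, chr7:27200797-27200997 with 13 tags and a fold of 3.54 in the library labelled lactate, and chr7:27200826-27201025 with 15 tags and a fold of 4.28 in the library labelled untreated. Both lie in HOTTIP, the lncRNA that starts beside HOXA13.

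The libraries differed most in number at the HOXB cluster on chromosome 17, from 48528526 to 48728750. The window widened by 50 kb held 10 regions in the library labelled lactate, against 2 in that labelled untreated. Inside the cluster bounds these were 5 and 1. Without HOXB the windows held 18 regions in the library labelled lactate, against 15 in that labelled untreated, a ratio of 1.2 in place of 1.65, beside 1.15 for the whole lists. The site in both libraries lies in HOXB3, between HOXB4 and HOXB5, at chr17:48585460-48585683 with 16 tags and a fold of 4.47 in the library labelled lactate and at chr17:48585224-48585659 with 13 tags and a fold of 4.05 in the library labelled untreated, with the summit on the same base. HOXB1, a hindbrain gene, had a region at chr17:48529779-48529978 with 10 tags and a fold of 4.07, and HOXB6 at chr17:48602666-48602895 with 15 tags and a fold of 4.23, in the library labelled lactate alone. The stretch from chr17:48585660 to the window's end, 193.1 kb with HOXB5, HOXB6, HOXB7, HOXB8, HOXB9 and HOXB13, held no region of the library labelled untreated.

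Of the other HOXB regions of the library labelled lactate, the strongest in the cluster lay at chr17:48678430-48678829 in LINC02086, with 13 tags and a fold of 6.42, and one near HOXB9 at chr17:48618646-48618845 had 12 tags and a fold of 3.76. A further 4 lay below the cluster, 22.4 to 44.5 kb from HOXB1, with folds of 3.57 to 6.51, and 1 above it, 9.22 kb from HOXB13, with 6 tags and a fold of 3.15. Of the 4, 1 overlapped the other region of the library labelled untreated.

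In the HOXC cluster on chromosome 12, from 53938831 to 54056030, 5 of 9 genes had a region in each library. This stands beside 67.5% of all protein-coding genes in the library labelled lactate, against 62.9% in that labelled untreated. It was the highest share of the 4 clusters, but 3 of the 5 genes are counted on shared regions. HOXC4, HOXC5 and HOXC6 share their lower end in the annotation and the regions near it, so these 3 members are not independent. The library labelled lactate had regions at chr12:54017853-54018063 and chr12:54018269-54018479 with 24 and 19 tags and folds of 5.81 and 4.76, and the library labelled untreated had 1 region over both, chr12:54017853-54018468, with 14 tags and a fold of 3.69. At HOXC10, the library labelled lactate had a region at chr12:53985459-53986059 with 16 tags and a fold of 4.17, and the library labelled untreated one at chr12:53985490-53985831 with 18 tags and a fold of 4.44. At HOXC13, a gene of hair and nail, the library labelled lactate had a region at chr12:53938478-53938887 with 17 tags and a fold of 4.55, and the library labelled untreated one at chr12:53938258-53939012 with 12 tags and a fold of 3.35. HOXC13 was the only HOX gene whose 5′ end lay under a region in both libraries.

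Each library also had a HOXC region of its own within a HOX gene. That of the library labelled lactate lay in HOXC4 at chr12:54036895-54037094 with 14 tags and a fold of 4.29, and that of the library labelled untreated lay in HOXC4, HOXC5 and HOXC6 at chr12:54021578-54021861 with 10 tags and a fold of 2.91. HOXC8, HOXC9, HOXC11 and HOXC12, and the lncRNA HOTAIR beside HOXC11, had none.

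In the HOXD cluster on chromosome 2, from 176087487 to 176190907, HOXD11, a gene of the forearm in the mouse, was the only one of 9 genes with a region, in both libraries. The region of the library labelled lactate spanned chr2:176106527-176106847 with 27 tags and a fold of 5.20, and that of the library labelled untreated chr2:176106637-176107110 with 21 tags and a fold of 4.93, 433 and 170 bp from the gene. The other HOXD regions lay between HOX genes. Both libraries had one 7942 and 7947 bp from HOXD8 with folds of 5.37 and 3.50, and one in the lncRNA genes HAGLR and HAGLROS with folds of 4.73 and 3.67, where the regions overlapped by 62 bp. The library labelled lactate alone had one between HOXD13 and HOXD12 at chr2:176097624-176097841, with 15 tags and a fold of 4.82.

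**Figure D3:**
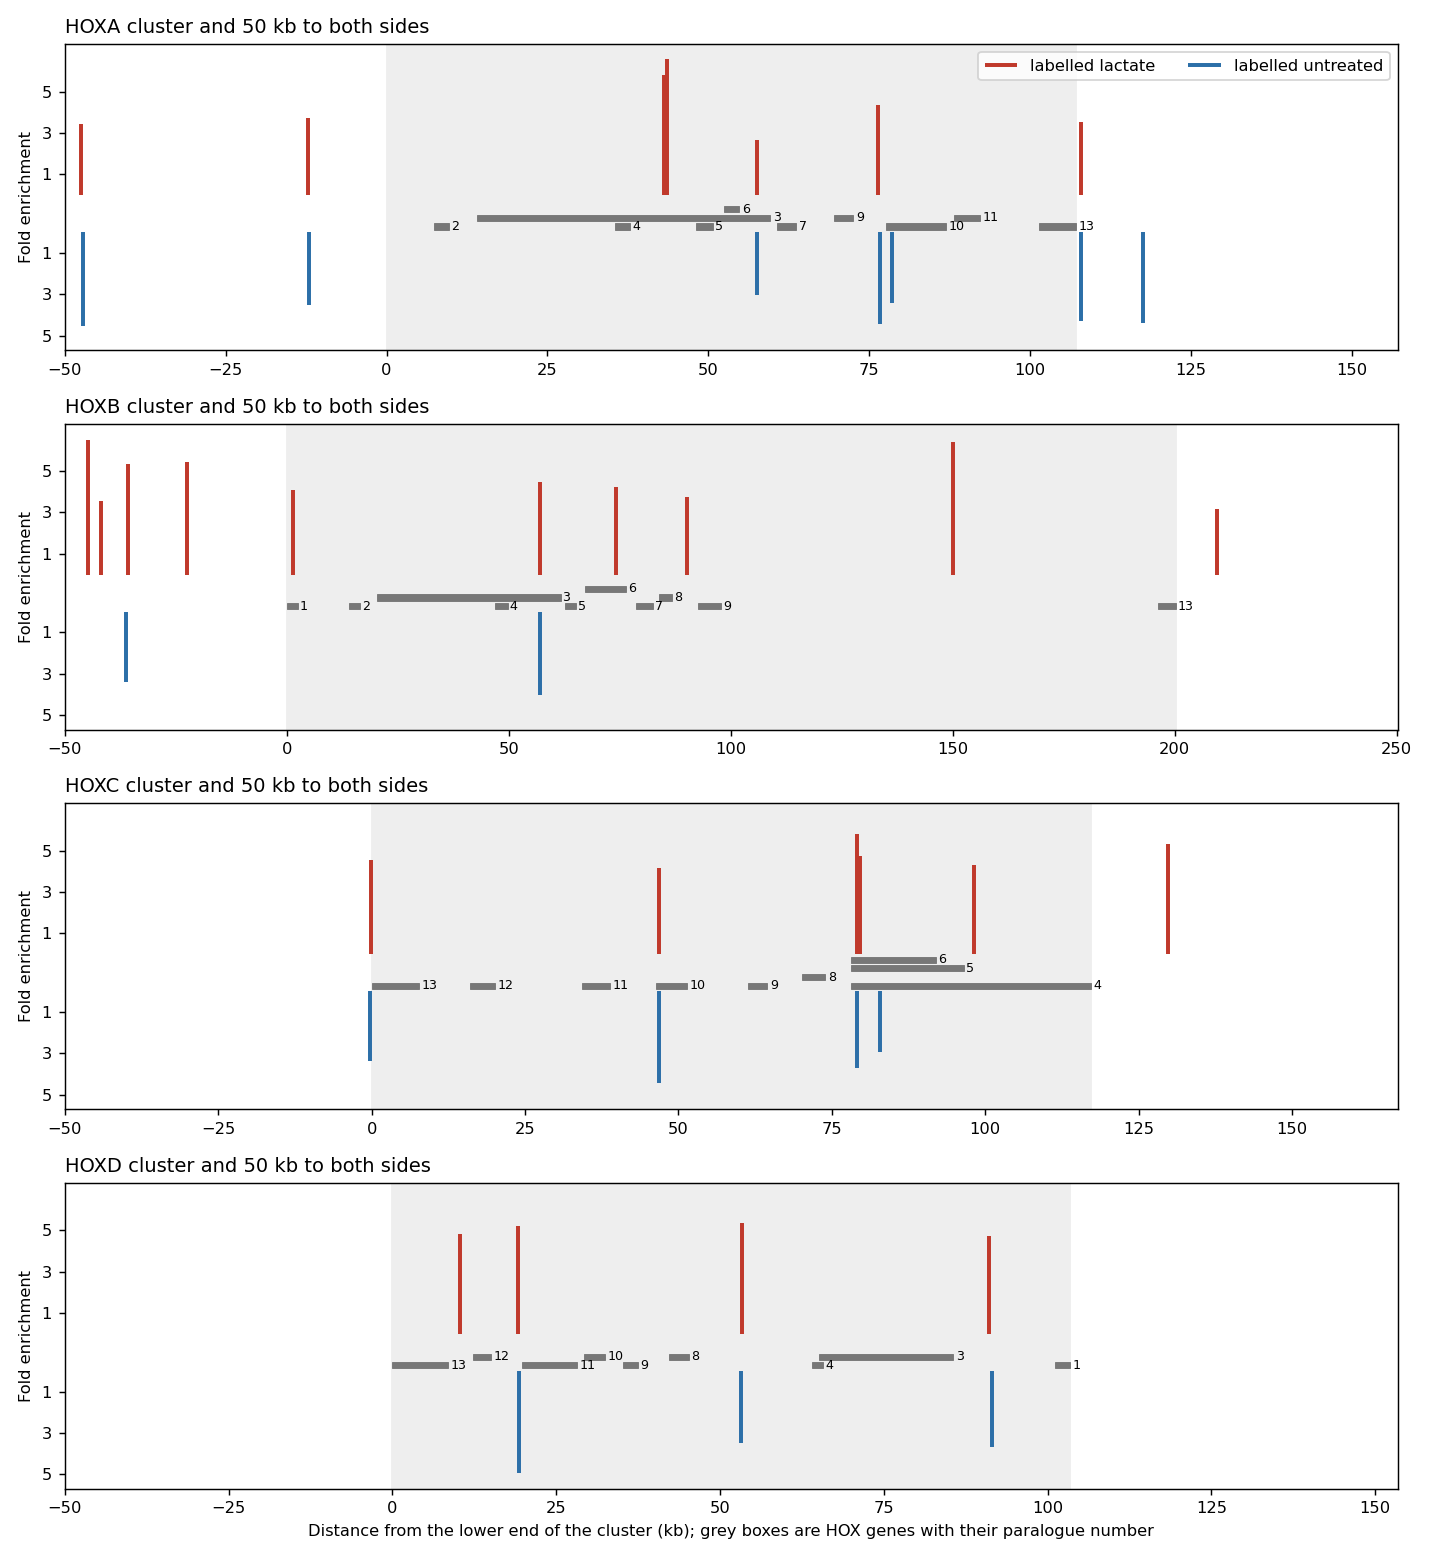
Regions in the 4 HOX clusters with 50 kb to both sides, as lines at the summit with the height of the fold enrichment, for the library labelled lactate (red, upward) and the library labelled untreated (blue, downward). The x axis is the distance in kb from the lower end of the cluster (shaded), and the grey boxes are HOX genes with their paralogue numbers. A gene that is not reported, and the regions within 1 kb of it, are not drawn. HOXB has 10 lines upward and 2 downward, and the highest line, in HOXA, is 6.58.

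Few HOX start sites lay under a region. RefSeq promoter windows on GRCh38.p14, from 250 bases before to 50 after a transcription start, were at hand for 20 of the 39 HOX genes. Of these, 0 of 20 had a region in a window in the library labelled lactate, with an exact interval up to 16.8%, beside 46.1% of 15843 protein-coding genes. The library labelled untreated had a region in 1 of 20, HOXD11 (5.00%, interval 0.127 to 24.9%), beside 40.2%. Within 1 kb of a start site, 5 of 20 had a region in each library (25%), namely HOXA3, HOXA13, HOXC4, HOXC5 and HOXD11 in each, beside 52% in the library labelled lactate, against 46.1% in that labelled untreated. The 20 genes leave out HOXC13. With like windows at the annotated 5′ ends of all 39 HOX genes, 1 held a region in the library labelled lactate, HOXC13. In that labelled untreated 3 did, HOXC13 and HOXD11 among them. Within 1 kb of these ends 8 of 39 had a region in each library. No share of all coding genes was counted for such ends.

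HOX promoter windows were not poor in CG dinucleotides, with a median of 22.5 over 26 windows, against 21 over 22063 windows of all coding genes. Their share of G and C bases was lower, with a median of 58%, against 62.3%. Among windows with 0 to 9 CG, 0 of 4 HOX windows held a region in each library, beside 8.24% of all windows in the library labelled lactate, against 6.75% in that labelled untreated. Among those with 10 to 19, 0 of 7 did in each, beside 39.6% and 34.5%. Among windows with 20 to 29 CG, 0 of 11 HOX windows held a region in the library labelled lactate, against 1 in that labelled untreated, beside 60.4% and 54.5% of all windows. Among those with 30 or more, 0 of 4 did in each library, beside 53.9% and 44.6%. The HOXA3 gene has several of these windows, so they are not separate genes.

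These promoter windows are shown because they mark the edge of the signal. That of HOXD11 is the 1 RefSeq HOX window reached by a region. HAGLR, a lncRNA read against the HOXD genes, has several windows, and the one shown is the most covered in the 4 widened clusters. That of HOXA13 has the most CG of any HOX window, 44, with the nearest region beyond it. Capitals mark bases under a region of either library, and each runs 5′ to 3′ along its gene. They stand at chr2:176107030-176107329 (plus strand), chr2:176178080-176178379 (minus strand) and chr7:27200042-27200341 (minus strand).
HOXD11: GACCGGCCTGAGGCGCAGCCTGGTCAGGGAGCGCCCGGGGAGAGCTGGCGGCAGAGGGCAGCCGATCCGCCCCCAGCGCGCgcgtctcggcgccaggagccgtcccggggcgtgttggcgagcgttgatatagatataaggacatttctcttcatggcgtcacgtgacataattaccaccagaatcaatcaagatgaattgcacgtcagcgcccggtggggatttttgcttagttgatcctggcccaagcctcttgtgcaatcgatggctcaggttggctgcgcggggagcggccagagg
HAGLR: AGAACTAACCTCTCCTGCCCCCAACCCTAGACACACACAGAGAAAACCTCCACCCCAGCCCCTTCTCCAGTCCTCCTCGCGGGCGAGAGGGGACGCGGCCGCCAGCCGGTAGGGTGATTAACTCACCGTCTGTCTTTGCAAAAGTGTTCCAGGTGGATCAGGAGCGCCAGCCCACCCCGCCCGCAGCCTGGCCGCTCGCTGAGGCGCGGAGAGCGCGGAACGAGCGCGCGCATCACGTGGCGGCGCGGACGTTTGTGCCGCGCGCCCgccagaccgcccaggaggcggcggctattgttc
HOXA13: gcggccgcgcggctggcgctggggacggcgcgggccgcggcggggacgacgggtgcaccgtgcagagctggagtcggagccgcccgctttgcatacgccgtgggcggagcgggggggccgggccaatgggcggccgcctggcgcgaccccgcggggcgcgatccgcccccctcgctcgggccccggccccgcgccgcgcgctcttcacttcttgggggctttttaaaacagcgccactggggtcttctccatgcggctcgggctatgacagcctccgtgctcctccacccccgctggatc

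In the HOXD11 window the region of the library labelled untreated covered the first 81 bases, and the region of the library labelled lactate ended 183 bp before it. In the HAGLR window shown the region of the library labelled lactate covered 267 bases and the library labelled untreated had its nearest region 440 bp away. The other HAGLR windows had no base under a region. They lay 9340 to 10029 bp from one in the library labelled lactate, against 9025 to 9714 bp in that labelled untreated. The HOXA13 window lay 456 bp from the region of the library labelled lactate and 485 bp from that of the library labelled untreated.

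Motifs were searched on both strands of the windows. TGATNNAT, a site of HOX proteins with PBX, was in 3 of 26 HOX windows, those of HOXD11, HOXA2 and HOXB1 (11.5%), beside 5.22% of all coding promoter windows. TAATTA, a homeodomain core, was in 2, those of HOXD11 and HOXD3 (7.69%), beside 3.40%. In HOXD11 these started 67 and 81 bases before the start site, outside the regions of both libraries. TGACAG, a MEIS site, was in 15.4% beside 14.8%, TATAAA in 19.2% beside 9.5%, and CCGCCC, a site of the SP family, in 50% beside 56.3%. The motifs could overlap, and a match is a description of the letters.

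Several of the sites lay on noncoding genes of the clusters. Of 24 lncRNA genes in the clusters 9 overlapped a region in the library labelled lactate (37.5%), against 7 in that labelled untreated (29.2%), beside 30.9% and 27.9% of all 18303 lncRNA genes. The 7 included HOXA-AS3 and HOXA10-AS in HOXA, HOXC13-AS and HOXC-AS3 in HOXC and HAGLR and HAGLROS in HOXD, all also in the library labelled lactate, which added HOXB-AS3 and LINC02086 in HOXB. HOTTIP, above HOXA13, lies outside the cluster bounds set by the HOX genes and was not counted here. Of the 28 regions of the library labelled lactate 11 lay on a lncRNA gene and 11 on a HOX gene, with 4 on both. Of the 17 of the library labelled untreated these were 8, 8 and 5.

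No miRNA gene of the clusters overlapped a region, 0 of 8 in each library, beside 4.05% of all 1902 miRNA genes in the library labelled lactate, against 3.26% in that labelled untreated. A count of 0 of 8 is near these shares. MIR196B, between HOXA9 and HOXA10, came nearest: the region of the library labelled lactate ended 66 bp below its hairpin and that of the library labelled untreated began 5 bp above it. Mature miRNAs of the cluster's miR-196 and miR-10 genes, which target HOX transcripts, are shown from RefSeq to set MIR196B beside its relatives, with the seed, bases 2 to 8, in capitals.
hsa-miR-196b-5p: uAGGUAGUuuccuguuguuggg
hsa-miR-196a-5p: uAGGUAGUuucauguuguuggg
hsa-miR-10a-5p: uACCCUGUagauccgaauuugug

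The miR-196 sequences share the seed AGGUAGU, and miR-10a has another, ACCCUGU. miR-196a comes from MIR196A1 in HOXB and MIR196A2 in HOXC, whose nearest regions lay 13645 and 5679 bp away in the library labelled lactate, against 46831 and 5907 bp in that labelled untreated. MIR10A in HOXB had its nearest region 5513 and 5277 bp away, and MIR10B in HOXD 9279 and 9333 bp away. Of the genes of the AGGUAGU seed, MIR196B lay closest to a region in each library.

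Most HOX regions had folds below the median of their list. The highest stood at percentile 81.2 of the list in the library labelled lactate, against 57.8 in that labelled untreated. Folds of the 28 regions of the library labelled lactate ran from 2.64 to 6.58 with a median of 4.52, beside a median of 4.87 over all 50352 regions. The 17 regions in that labelled untreated ran from 2.91 to 4.93 with a median of 3.67, beside 4.63 over all 43680. In the library labelled lactate 10 of 28 regions stood above the list's median fold, and in the library labelled untreated 1 of 17, the HOXD11 region. None in either library was in the upper 10% of its list, which began at folds of 7.58 and 6.99.

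Pileups were near those of the lists, with a median of 15 tags in the library labelled lactate, against 14 in that labelled untreated, the same as over all regions of each. The local background recomputed from pileup and fold was higher in the HOX windows, with a median of 0.185 tags per 1000000 tags in the library labelled lactate, beside 0.146 over its list, and 0.180 in the library labelled untreated, beside 0.135. The part of this background in the low folds was not tested. With a fold of at least 5, 5 of 39 HOX genes in the library labelled lactate, against 0 in that labelled untreated, kept a region, beside 47.2% and 37.9% of all protein-coding genes. The 5 were HOXA3, HOXD11, and HOXC4, HOXC5 and HOXC6, which kept the same region. These shares of all genes are not matched for gene length.

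**Figure D4:**
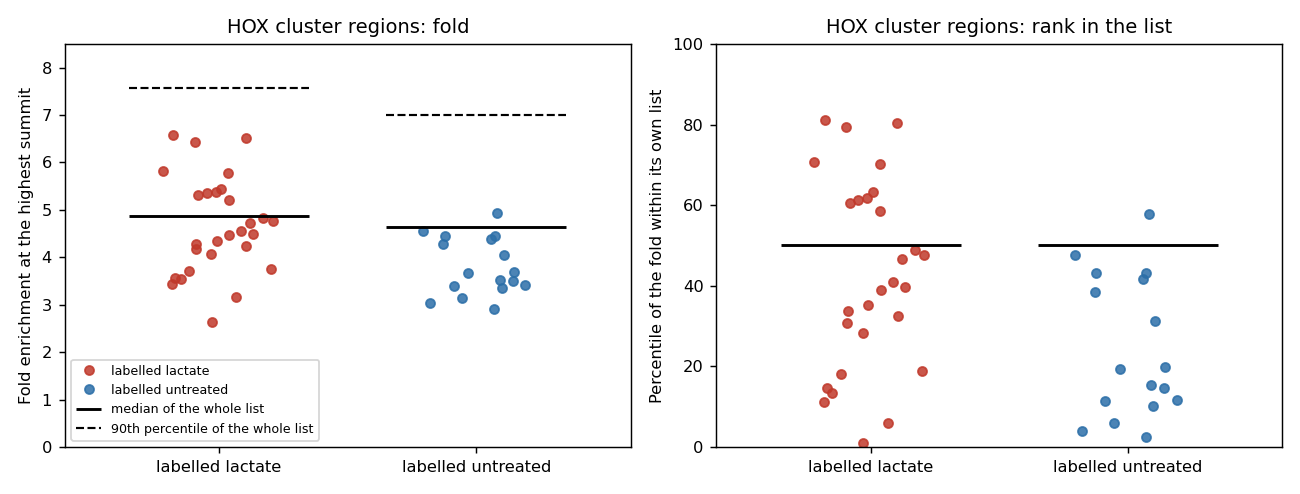
Fold enrichment (left) and its percentile within the whole peak list (right) for the regions in the widened HOX clusters, as points, for the library labelled lactate (red, 28 regions) and the library labelled untreated (blue, 17 regions). Solid lines mark the median of each list and dashed lines its 90th percentile. All points lie below the dashed lines, and 1 blue point lies above the median.

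Between the libraries, the regions of the 2 lists together made up 32 distinct sites. Of the 28 regions of the library labelled lactate 13 overlapped a region of the library labelled untreated (46.4%, interval 27.5 to 66.1%), beside 61.2% of its whole list. Of the 17 of the library labelled untreated 12 overlapped one of the library labelled lactate (70.6%, interval 44.0 to 89.7%), beside 71.2%. Both shares have intervals that hold the value of the whole list.

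The 13 overlapping pairs of regions stand at 12 sites, since 1 region of the library labelled untreated, at HOXC4, HOXC5 and HOXC6, overlapped 2 of the library labelled lactate. With the higher of these 2 taken, the pileup per 1000000 tags in the library labelled lactate over that in the library labelled untreated ran from 0.755 to 1.85 over the 12 sites with a median of 1.29, and 7 stood above 1. The exact interval of the ratio, from the tags alone, held 1 in all 13 pairs. The highest ratio was at the site below HOXB1, with 16 tags in the library labelled lactate, against 9 in that labelled untreated (1.85, interval 0.768 to 4.74). At the HOXC4, HOXC5 and HOXC6 site, 24 tags in the library labelled lactate, against 14 in that labelled untreated gave 1.78 (interval 0.884 to 3.72). At HOXD11, 27 tags in the library labelled lactate, against 21 in that labelled untreated gave 1.33 (interval 0.727 to 2.48), and at HOXA13 13 and 15 tags gave 0.90 (interval 0.394 to 2.03). Tags are not independent molecules and summits are maxima of each library, neither of which the intervals cover.

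**Figure D5:**
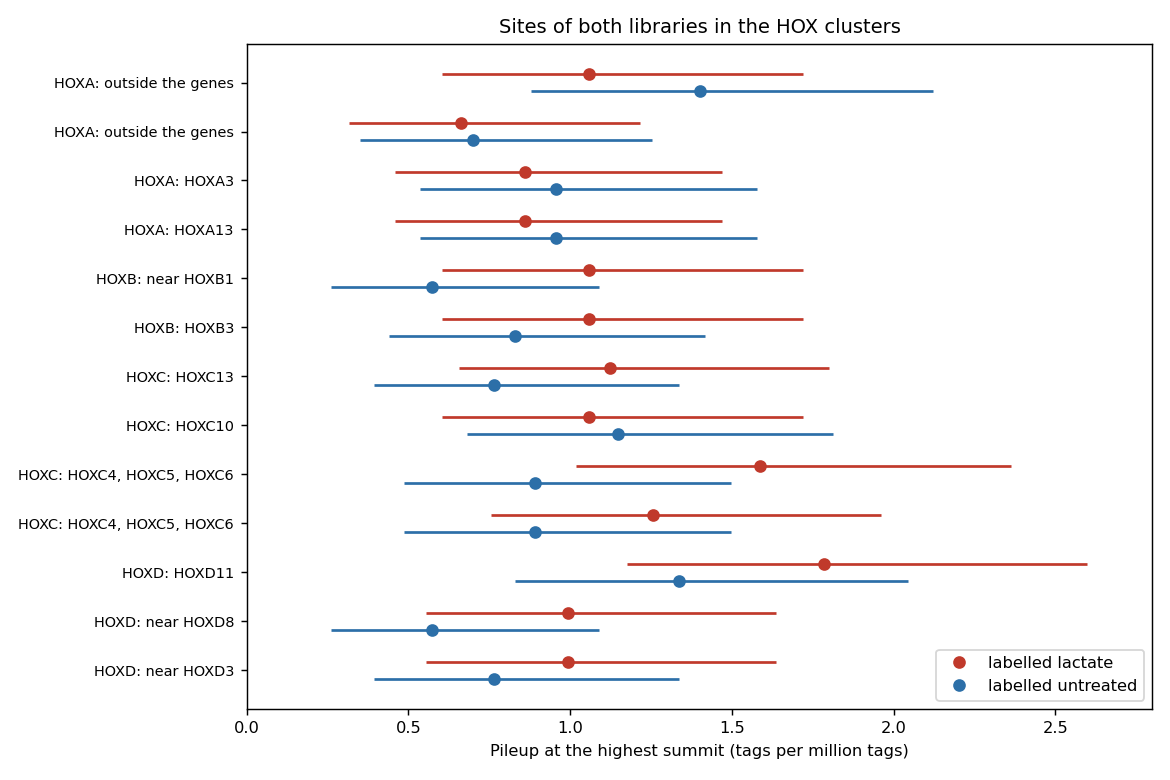
Pileup at the highest summit (x axis, tags per 1000000 tags) for the 13 overlapping pairs of regions in the widened HOX clusters (rows, with the cluster and, for all but 2 pairs, the gene within 1 kb or nearest), for the library labelled lactate (red, upper) and the library labelled untreated (blue, lower). Bars are exact Poisson 95% intervals for counting error, and the bars of the libraries overlap in each pair. The 2 rows of HOXC4, HOXC5 and HOXC6 show the same region of the library labelled untreated.

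Some regions were in 1 library alone. Of 15 such regions in the library labelled lactate 2 lay within 500 bp of a region of the other library, 1 of them near MIR196B, and 13 lay over 5 kb from one. Of the 15, 14 had a pileup above the lowest that the list of the library labelled untreated held at a like local background. All 5 such regions of the library labelled untreated likewise stood above the lowest of the other list. Each lowest value is the minimum of a large set of called regions. Most called regions pass it, so it tells nothing of the other library's signal at these sites. In the library labelled untreated, 5 regions stood alone, with 2 within 500 bp of a region of the library labelled lactate, 2 at 1974 and 3099 bp from one, and 1 over 5 kb away, 10.3 kb above HOXA13. A region absent from a list says that no peak was called there, not that no tags lay there.

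Genes that work with the HOX proteins or control the clusters were counted the same way, beside 67.5% of all protein-coding genes in the library labelled lactate, against 62.9% in that labelled untreated. Of 9 genes of the HOX cofactors, the PBX, MEIS and PKNOX homeodomain proteins, 7 had a region in each library. PKNOX1 had folds of up to 9.41 in the library labelled lactate, against 8.15 in that labelled untreated, MEIS1 of 7.38 and 8.17 and PBX3 of 7.37 and 9.47. PBX2 and MEIS3 had none. These genes are long, with a median of 138745 bp, and a long gene can hold more regions.

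Of 27 Polycomb genes 21 had a region in the library labelled lactate (77.8%), against 16 in that labelled untreated (59.3%), with 14 in both. EZH2, the methyltransferase that places the repressive H3K27 mark, had folds of 6.62 and 3.88, EED of 5.23 and 5.00, and SUZ12 one in the library labelled untreated alone, of 5.34. The highest folds in the library labelled lactate were those of PCGF5, 8.70 and 5.81, PHF19, 8.62 and 7.32, RBBP4, 8.37 and 5.82, and PCGF3, 7.34 and 5.99, with the value of the library labelled untreated second. In the library labelled untreated JARID2, at 6.72, and AEBP2, at 6.36, stood above all of these but PHF19. Of 11 genes of trithorax complexes and H3K27 demethylases 10 had one in each library. RBBP5 had a fold of 13.4 in the library labelled lactate, against 7.60 in that labelled untreated, and KDM6A, a demethylase of the repressive mark, 9.23 and 7.14. WDR5 had none.

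Homeobox genes outside the clusters are also mostly short, with median lengths of 6703 and 6471 bp in the lists given here. Of all coding genes of 5 to 20 kb, 58.5% had a region in the library labelled lactate, against 52.9% in that labelled untreated. Over all lengths the shares were 67.5% and 62.9%. Whether gene length plays a part in the counts below was not tested. Of 15 extended HOX and ParaHox genes, which stem from the same ancestral cluster or lie near it, 3 had a region in the library labelled lactate (20%), against 2 in that labelled untreated (13.3%). These were GBX2 and MEOX2 in both libraries and MNX1 in the library labelled lactate alone, while EVX1 and EVX2, which adjoin HOXA and HOXD, had none. Of 30 homeobox genes of the head and branchial arches 16 had one in the library labelled lactate (53.3%), against 15 in that labelled untreated (50%), with a median length of 6471 bp. Among them IRX5 had folds of 9.48 in the library labelled lactate, against 6.82 in that labelled untreated, above those of every HOX region of each library. DLX1 and DLX6 also had a region in both libraries.

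As a check of the line's identity, 14 of 15 genes of oral squamous epithelium had a region in the library labelled lactate, against 13 in that labelled untreated, or 93.3% and 86.7%, beside 67.5% and 62.9% of all protein-coding genes. TP63, KRT5 and EPCAM were among them, and KRT14 had none. Of 16 marker genes of other cells 12 had one in the library labelled lactate, against 11 in that labelled untreated, or 75% and 68.8%, near the shares of all protein-coding genes. ALB, NEUROD1 and COL3A1 had none. SYT1 had 12 regions in the library labelled lactate, against 14 in that labelled untreated, RBFOX3 11 and 12, and VWF 6 and 6. A region on a gene does not show its expression, so these counts do not tell cell types apart, and no RNA was analysed here.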

How the data were processed

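The files were the peak lists of 2 CUT&Tag libraries of CAL27 cells. Per the submitters' processing notes, the build was hg38 and the tools included fastp 0.20.0, BWA and MACS2 2.1.0. Per the file headers, MACS 2.1.0.20150420 made each list from 1 library, with no control file, a q cutoff of 0.05, reads shifted by -100 bp and extended by 200 bp. The deposited pileup is a signal in tags at a summit, not scaled for depth. The deposited fold enrichment is a ratio, pileup plus 1 over local background plus 1. A library without antibody and a spike-in are not given in the sources used here.

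From the 58929 summits of the library labelled lactate and the 49750 of the library labelled untreated, those with equal start and end were joined into 50352 and 43680 regions, each with the values of its summit of highest fold. Local background was solved from pileup and fold. The strength of a peak was recomputed as the −log10 of a Poisson upper tail. Genes, promoter windows and mature miRNAs came from RefSeq tables on GRCh38.p14, the build of the peaks. Regions sharing at least 1 bp were called overlapping. Text names the HOX genes with a region, the flanking genes, and up to 4 members of highest fold per list, except some genes that are counted but not reported here by name, and other members were named after their values were seen. HOX genes and lists were chosen with earlier results of these data known. With 1 library per group no test was possible. Alternatives changed the widening, the thresholds, the overlap and the number of regions (21840 per list). Counting code was tested on simulated data. Software was SciPy 1.17.1, numpy 2.4.6, matplotlib 3.10.9 and pandas 2.3.3 under Python 3.11.15.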

Additional observations from a re-analysis of the deposited data

How the results depend on the processing

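The count of HOX genes with a region, 12 in the library labelled lactate, 11 in the library labelled untreated and 10 in both, stayed within 1.5 times under no widening, gene ends alone and the highest summit in the window. Widening the gene by 5 kb gave 23 genes in the library labelled lactate and 16 in both. A fold of at least 5 gave 5, 0 and 0 genes, equal lists gave 5, 1 and 1, and a recomputed −log10 p of at least 7 left 3 in the library labelled untreated and 1 in both. The regions in the widened clusters, 28 and 17, became 10 and 0 at a fold of at least 5, 16 and 4 at a −log10 p of at least 7, and 10 and 1 with equal lists. At a fold of at least 5 in both lists the shared share of the library labelled lactate was 0%, and the library labelled untreated had no region left, so no share could be given. These settings keep fewer regions by construction, or a wider window. Over these results, 15 of 32 alternatives stayed within 1.5 times or the interval and 17 did not. The pileups of 6 to 27 tags at a summit limit what can be told between the libraries. No paired analysis was possible because each group has 1 library and the labels give no replicate numbers.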

Other observations

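Other protein-coding genes in the widened clusters were EVX1 beside HOXA, PRAC1, PRAC2 and TTLL6 in or beside HOXB, and EVX2 beside HOXD. EVX1, EVX2, PRAC1 and PRAC2 had no region in either library, and TTLL6, which reaches beyond the window, had 1 in the library labelled lactate, against 2 in that labelled untreated. Beyond the windows, the nearest coding neighbours SKAP2 of HOXA and SKAP1 of HOXB had 3 and 4 regions in the library labelled lactate and 3 in each case in the library labelled untreated. CALCOCO1, below HOXC, had 1 in each library, SMUG1, above it, had none, and MTX2, above HOXD, had 3 in the library labelled lactate, against 2 in that labelled untreated.

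The widest stretch of a window without a region in the library labelled lactate was 62.0 kb, at the upper end of HOXD with HOXD1, and in the library labelled untreated 193.1 kb, in HOXB. In HOXA the library labelled untreated had no region over 54.3 kb that holds HOXA2, HOXA4, HOXA5 and HOXA6, where the library labelled lactate had 2 regions between HOXA4 and HOXA5.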
